A study of Mus musculus with 12 samples.

Results

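Cd9, Cd24a, Gpx3, Rbp4 and Ucn3 are 5 genes that the study discussed as markers of beta-cell subtypes or of beta-cell maturity. They were taken as named, out of 21757 protein-coding genes. Each locus was the gene body with 20 kb on each side, and the 5 windows held 3198 of 21730423 CpGs and 17 of 87689 hypomethylated regions (HMRs).

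Tagmentation-based whole genome bisulfite sequencing was done on sorted islet beta cells of mice that all carried Myt1cCre, Ngn3nCre, Rosa26eYFP and InsApple. Apple, driven by an insulin gene, marked the beta cells, and eYFP marked those from progenitors that had expressed both Myt1 and Ngn3 (M+N+), because the 2 complementary parts of Cre act only together. Cells without eYFP are assigned to M-N+ progenitors, so that a descendant in which Cre failed to recombine would also sort as eYFP-. There were 12 libraries, 2 of each subtype at postnatal day 2 (P2) and 4 of each at postnatal day 60 (P60), and each combined cells sorted from several mice. The labels give the cell type as all islet cells and write eGFP for the reporter, whereas the protocol describes sorting on eYFP and Apple. Read counts were deposited for 4 pools, 1 for each stage and subtype, whose eYFP status is not in the labels and was assigned as described with the processing, with 25.4 to 25.6 reads per covered CpG at P2 and 45.1 to 45.3 at P60. For single libraries the positions of 38052 to 60950 HMRs were available.

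Methylation of the cytosine in a CpG is usually dense across the genome and low at active promoters and enhancers, which therefore appear as HMRs. Lasting low methylation can also mark elements that were used earlier in a lineage. Cd9 encodes a tetraspanin and Cd24a a lipid-anchored glycoprotein, both found on the cell surface and used to separate cell populations by antibody. Gpx3 encodes a secreted, selenium-containing glutathione peroxidase, and Rbp4 the carrier of retinol in plasma. Ucn3 encodes urocortin 3, a peptide of the corticotropin-releasing hormone family that beta cells release and that is widely used as a marker of mature beta cells.

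Some features of the libraries bear on all comparisons. A pool gives 1 value without replicate error, so the pools were compared by Fisher's exact test on reads, which tells whether the pools differ, not whether mice do. Intervals below are 95% Wilson intervals and, like the standard errors of differences, cover counting error only, since PCR reads are not independent molecules. The P2 and P60 libraries carry different prefixes in their file names, so that stage and library series cannot be told apart. Per the study's methods, sorted batches were combined for each stage and sex before libraries were made. Libraries of the same stage, subtype and sex label may therefore share DNA, whereas the tests over libraries take each library as independent. Of 253 X-linked HMRs found in every male and in no female P60 library, 91.7% were found in P2 eYFP- replicate 1, labelled female, and 13.4% in replicate 2, labelled male, so these libraries went against their sex labels, while the P2 eYFP+ libraries followed theirs with 13.0% (female) and 83.8% (male). None of the 5 genes is X-linked. As a check of the sort, the promoter of Ins1 was methylated at 25.4% to 31.6% at P2 and at 7.69% to 8.29% at P60, whereas those of Gcg, Sst and Ppy, which mark other islet cells, lay between 56.7% and 83.8%. The 5 beta-cell markers were not all low, since the Ins2 promoter lay between 69.0% and 78.6% and that of G6pc2 between 77.3% and 83.2%. Promoters of 2 blood markers lay between 72.6% and 81.6%, those of 2 endothelial markers between 58.2% and 76.8%, those of 3 acinar markers between 55.3% and 100% and those of 2 mesenchyme markers between 43.7% and 74.4%. Of the 2 duct markers, Krt19 had 77.1% to 87.8% and Sox9 had 0.889% to 3.48%.

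The differences between stages were much larger than those between subtypes at the 5 loci. From P2 to P60, 15 of the 17 HMRs gained methylation and the 2 at Ucn3 lost it, in both subtypes. All 17 passed the test (Fisher's exact test on the 2 pools, Benjamini-Hochberg adjusted p under 0.05 over all merged HMRs) in eYFP- and in eYFP+ cells. Of all HMRs 50% passed in eYFP- cells, 42.0% with a gain and 7.96% with a loss. In eYFP+ cells 50% passed, 39.6% with a gain and 10.4% with a loss. The median change was 12.6 points at the loci against 2.90 points over all HMRs in eYFP- cells, and 15.1 against 2.36 points in eYFP+ cells. An HMR that was called in the pools of 1 stage only had to be low at that stage, and 7 of the 17 were called in P2 pools only and 1 in P60 pools only. Among the 8 called in all 4 pools, all 8 passed in both subtypes, where 40.2% of all such HMRs passed in eYFP- and 39.9% in eYFP+ cells. Their bounds were still merged over the 4 pools, so that bases at their edges could lie in an HMR at 1 stage only. With 50 kb in place of 20 kb on each side, 26 of 40 HMRs passed in each subtype.

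**Figure D1:**
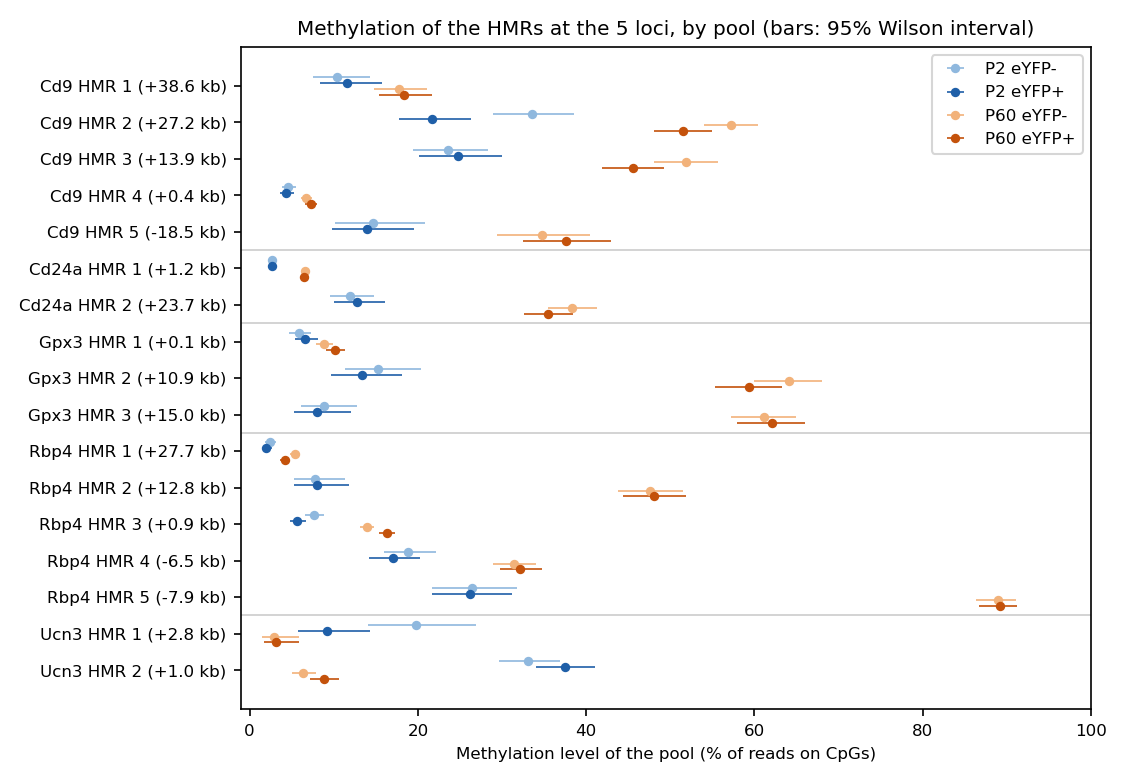
Methylation level of the 17 HMRs (rows, with the distance of their middle from the gene start along the gene) in each of the 4 pools; points are the share of methylated reads in percent and bars are 95% Wilson intervals. Blue P2 points lie left of orange P60 points in all rows but the 2 of Ucn3, and points of the same stage mostly lie close together. The widest gaps are between the P2 pools, in the Cd9 intron 2 HMR (33.6% and 21.7%) and the shorter Ucn3 HMR (19.7% and 9.14%).

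Ucn3 (chr13:3990688-3995349, minus strand, mm39) was the only 1 of the 5 genes whose HMRs lost methylation with age. Its HMR at the gene start, chr13:3993293-3995363, spans the first exon and much of intron 1 and holds 23 CpGs. Its level was 33.1% (29.6% to 36.9%) in the P2 eYFP- pool and 37.5% (34.0% to 41.1%) in the P2 eYFP+ pool. At P60 it was 6.31% (5.02% to 7.89%) and 8.78% (7.23% to 10.6%). The level thus fell by 26.8 points (counting SE 1.99) in eYFP- cells, with an adjusted p of 3.05e-45 in Fisher's exact test, and fell by 28.7 points (SE 2.00) in eYFP+ cells, with an adjusted p of 6.31e-47. Of its CpGs with enough reads, 20 of 22 were lower at P60 in eYFP- cells and 18 of 22 in eYFP+ cells. Part of this merged region lay in an HMR at P60 only and so had to be low there, which adds to these falls.

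The loss within the Ucn3 HMR was uneven. The HMR was 1240 bp long in each of the 4 P2 libraries, and between 1652 and 2071 bp in the 8 P60 libraries, so the groups did not overlap (exact permutation test over libraries, two-sided p = 0.00202, the smallest that 4 against 8 can give). The bases that lay in an HMR in all 12 libraries went from 13.7% and 14.6% to 2.55% and 5.19%. The other bases of the region, which lie deeper in intron 1, went from 58.6% and 65.6% in the P2 pools to 9.98% and 12.4% in the P60 pools. Among libraries these other bases lay in an HMR at P60 only, so that they had to be low there, and the values are a description. The CpGs with the largest changes lay in these other bases, and at chr13:3993881 the level was 84.1% of 44 reads in the P2 eYFP+ pool and 6.67% of 60 reads in the P60 eYFP+ pool (adjusted p of Fisher's exact test over all CpGs 3.27e-11). A shorter HMR in intron 1, chr13:3992405-3992794, with 5 CpGs, had 19.7% and 9.14% at P2 and 2.90% and 3.11% at P60. It was found in no P2 library and in 2 P60 libraries, as an HMR of its own in eYFP- replicate 2 and joined to the start HMR in eYFP+ replicate 3. In the pools it was called at P60 only, so that it had to be low there. The stretch of intron 1 that holds the most CpGs with a called change in eYFP- cells is shown on the gene's strand (chr13:3993583-3993882, minus strand, mm39), with these 5 CpGs in capitals.
Ucn3 intron 1: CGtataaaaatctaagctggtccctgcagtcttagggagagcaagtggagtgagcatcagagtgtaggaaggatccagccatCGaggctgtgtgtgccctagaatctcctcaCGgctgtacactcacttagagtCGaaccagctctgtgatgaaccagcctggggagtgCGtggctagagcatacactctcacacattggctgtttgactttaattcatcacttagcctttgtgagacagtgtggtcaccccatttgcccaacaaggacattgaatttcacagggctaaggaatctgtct

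The Ucn3 window did not lose methylation as a whole. Outside its HMRs the level rose from 78.3% to 83.4% in eYFP- cells and from 78.0% to 82.7% in eYFP+ cells, and a single CpG upstream of the gene, chr13:4001368, rose from 6.45% of 31 reads to 72.5% of 51 reads in eYFP- cells. The promoter window (1000 bp before to 500 bp after the start) held 14 CpGs at 37.1% and 42.8% in the P2 pools and 40.1% and 40.8% in the P60 pools, and it was not called in any comparison. The HMR ended just upstream of the gene start, and the 5 CpGs from -879 to -468 bp of the start had levels from 78.3% to 100% in the 4 pools.

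**Figure D2:**
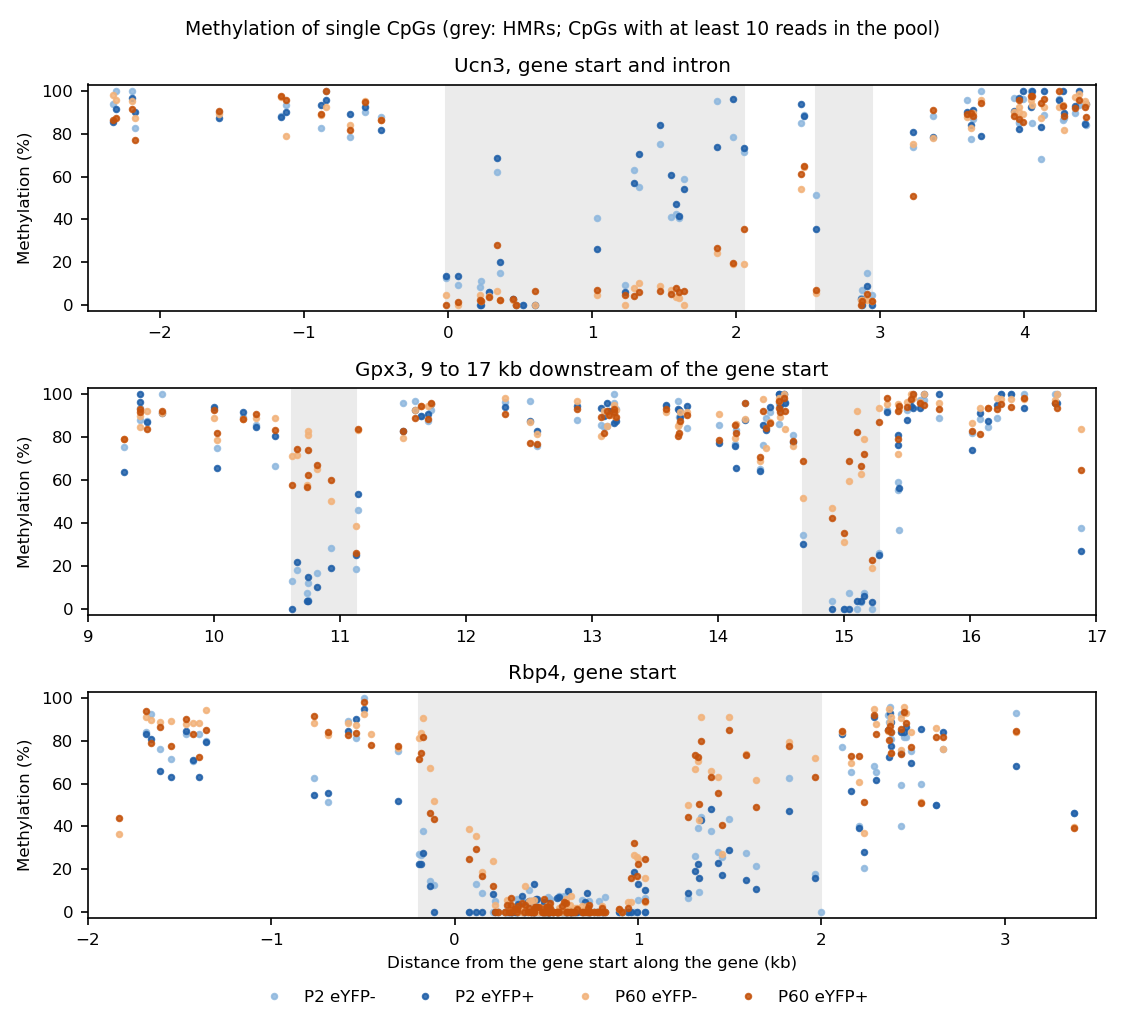
Methylation of single CpGs (percent) against the distance from the gene start in kb for 3 regions, in the 4 pools; grey bands are the HMRs. In Ucn3 the blue P2 points are high inside the start HMR between 1 and 2 kb where the orange P60 points are low. In the distal HMRs of Gpx3 the order is the other way round, and in Rbp4 the stages separate at the edges of the start HMR and not in its middle.

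Gpx3 (chr11:54793279-54802424, plus strand) had large gains downstream of the gene and a small one at its start. The 2 downstream HMRs lie within introns 17 and 14 of the neighboring Tnip1. The first, chr11:54803897-54804409, 10.9 kb from the Gpx3 start, had 15.3% and 13.3% in the P2 pools and 64.1% and 59.4% in the P60 pools. The second, chr11:54807953-54808555, 15.0 kb from the start, had 8.87% and 8.0% at P2 and 61.1% and 62.0% at P60. The gains were 48.8 and 46.1 points for the first and 52.2 and 54.0 points for the second, in eYFP- and eYFP+ cells, with counting SEs of 2.6 to 3.11 points and adjusted p from 1.17e-51 to 6.56e-35 in Fisher's exact test. Both HMRs were found in all 4 P2 libraries and in none of the 8 P60 libraries. In the pools both were called at P2 only, so that they had to be low at P2, and the values are a description. Their CpGs moved together, 8 of 8 in the first and 9 of 9 in the second being higher at P60 in both subtypes. The CpG at chr11:54808381 had 0 methylated of 38 reads in the P2 eYFP- pool, which allows a level of up to 7.89%, and 92.2% of 77 reads in the P60 eYFP- pool. Stretches of both, on the plus strand (chr11:54803897-54804196 and chr11:54808148-54808447, mm39), are shown because both regions were HMRs at P2 and in no library at P60, with the CpGs called in eYFP- cells in capitals.
Gpx3 +10.9 kb: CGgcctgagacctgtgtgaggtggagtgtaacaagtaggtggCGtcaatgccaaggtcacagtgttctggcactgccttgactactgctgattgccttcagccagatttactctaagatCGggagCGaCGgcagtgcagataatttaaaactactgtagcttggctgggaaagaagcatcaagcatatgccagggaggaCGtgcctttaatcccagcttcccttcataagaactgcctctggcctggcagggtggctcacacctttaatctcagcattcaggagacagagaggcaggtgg
Gpx3 +15.0 kb: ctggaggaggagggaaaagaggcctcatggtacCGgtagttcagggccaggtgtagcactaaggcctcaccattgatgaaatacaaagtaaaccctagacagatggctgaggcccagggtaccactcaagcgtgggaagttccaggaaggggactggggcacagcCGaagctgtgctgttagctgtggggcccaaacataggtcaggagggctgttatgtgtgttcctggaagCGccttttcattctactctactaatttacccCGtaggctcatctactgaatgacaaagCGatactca

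At the Gpx3 start itself the change was small. The HMR chr11:54792563-54794099 had 5.85% and 6.62% at P2 and 8.88% and 10.1% at P60, gains of 3.02 and 3.52 points. Its length was 1537 bp in all 4 P2 libraries and between 672 and 1456 bp at P60, without overlap (exact permutation test, p = 0.0121). At P60 the length was 1279, 1279, 1456 and 672 bp in the eYFP- libraries and 672, 833, 855 and 672 bp in the eYFP+ libraries. The subtypes overlapped in the shortest value (exact permutation test, p = 0.143).

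Rbp4 (chr19:38105066-38113754, minus strand) lies between Ffar4, a receptor for long-chain fatty acids, and Pde6c, a phosphodiesterase of cone photoreceptors, and 3 of the 5 HMRs in its window lie in these neighbors. The HMR in the first coding exon of Pde6c, chr19:38121531-38121708, at -7.9 kb of the Rbp4 start, rose most of the 17, from 26.4% and 26.2% in the P2 pools to 88.9% and 89.1% in the P60 pools, and it was found in 1 library of each subtype at P2 and in none at P60. The HMR in intron 2 of Ffar4, chr19:38100555-38101354, rose from 7.77% and 7.97% to 47.6% and 48.1%, and it was found in all 4 P2 and no P60 library. This HMR and that in the Pde6c exon were called in P2 pools only, so that they had to be low at P2. Between Rbp4 and Pde6c, chr19:38119622-38120937 rose from 18.8% and 17% to 31.4% and 32.2% and kept an HMR in all 12 libraries. The HMR over the start of Ffar4, chr19:38085174-38086836, had 2.38% and 1.98% at P2 and 5.41% and 4.18% at P60. The Pde6c exon is shown (chr19:38121531-38121708, minus strand as for Rbp4, mm39) because nearly all of its CpGs changed, those called in eYFP- cells being in capitals.
Rbp4 -7.9 kb: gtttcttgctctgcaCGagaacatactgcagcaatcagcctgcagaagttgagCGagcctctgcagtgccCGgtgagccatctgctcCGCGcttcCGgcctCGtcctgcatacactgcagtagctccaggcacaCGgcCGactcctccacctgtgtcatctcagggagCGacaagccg
Beside this HMR, 24 CpGs outside the HMRs were called in at least 1 subtype between chr19:38120968 and chr19:38124148, where all 54 CpGs together rose from 58.4% and 53.5% at P2 to 84.8% and 81.7% at P60. This run was noticed after the values were seen.

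The HMR at the Rbp4 start, chr19:38111754-38113947, with 105 CpGs, had 7.59% and 5.67% at P2 and 13.9% and 16.3% at P60. The gains of 6.33 points (SE 0.72) and 10.7 points (SE 0.69) had adjusted p of 1.41e-14 and 4.89e-39 in Fisher's exact test. The HMR was 1469, 2194, 2194 and 1839 bp long in the P2 libraries and between 834 and 963 bp in the 8 P60 libraries, without overlap (exact permutation test, p = 0.00202). The bases covered in all 12 libraries stayed at 1.05% to 1.74% in the 4 pools, whereas the edges went from 20.9% and 16.7% to 52.7% and 52.3%. A promoter window of 250 bp before to 50 bp after the most upstream start lies at the upstream end of this HMR, and there the gain was 50.4 points in eYFP- and 46.6 points in eYFP+ cells, against 2.07 and 7.98 points in the wider window.

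Cd9 (chr6:125437210-125471778, minus strand) had 5 HMRs. The HMR at its start, chr6:125470459-125472256, had 4.60% and 4.36% at P2 and 6.68% and 7.29% at P60. The 2 intronic HMRs were higher and changed more. In intron 1, chr6:125457444-125458337 rose from 23.6% and 24.7% to 51.9% and 45.5%, and in intron 2, chr6:125444342-125444757 rose from 33.6% and 21.7% to 57.3% and 51.6%. Both were found in P2 libraries only, the first in 3 of 4 and the second in 2 of 4. Upstream of the gene, chr6:125490062-125490465 rose from 14.7% and 13.9% to 34.8% and 37.6%, and downstream, chr6:125432873-125433444 rose from 10.4% and 11.5% to 17.7% and 18.3% (adjusted p 0.00827 and 0.0202 in Fisher's exact test). The 2 intronic HMRs and the upstream one were called in P2 pools only, so that they had to be low at P2.

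Cd24a (chr10:43454280-43460264, plus strand) had 2 HMRs. The larger, chr10:43453756-43457231, with 194 CpGs, covers the start of Cd24a and the most upstream start of Mtres1, which runs the other way. The start of the canonical Mtres1 transcript lies outside it. A change in this HMR cannot be given to either gene. The HMR had 2.61% and 2.63% at P2 and 6.56% and 6.41% at P60, gains of 3.95 and 3.77 points. The other, chr10:43477460-43478475, 23.7 kb from the start in intergenic sequence, rose from 11.9% and 12.7% to 38.4% and 35.5%. It was found in all 4 P2 libraries, in no P60 eYFP- library and in 2 of 4 P60 eYFP+ libraries. The P60 levels were not called as different between subtypes (adjusted p = 0.588, Fisher's exact test). Nor did the number of HMRs in the window separate the P60 subtypes (exact permutation test, p = 0.429). At P60 this HMR was called in the eYFP+ pool only, so that in eYFP- cells it had to be low at P2.

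At the start HMRs of Cd9, Cd24a, Gpx3 and Rbp4 the levels of core and edges were set side by side. The core, the bases in an HMR in all 12 libraries, was under 4% in all pools at these 4 genes, but not without change. The Gpx3 core had 2.02% and 1.41% at P2 and 3.66% and 3.5% at P60, where the intervals of the eYFP+ pools did not overlap (0.824% to 2.39% and 2.76% to 4.43%), and it held 74.6% to 79.2% of the reads on the HMR. The Cd24a core had 0.766% and 0.991% at P2 and 1.55% and 1.48% at P60. At the edges Cd9 went from 17.2% and 15.0% to 33.5% and 31.9%, and Cd24a from 13.4% and 11.6% to 42.7% and 41.9%. Gpx3 went from 20.5% and 22.0% to 27.8% and 30.5%, where the intervals of the 2 eYFP- pools overlapped, 16.0% to 25.8% and 24.5% to 31.4%. The split into core and edges uses the library HMRs themselves, so these values are a description.

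**Figure D3:**
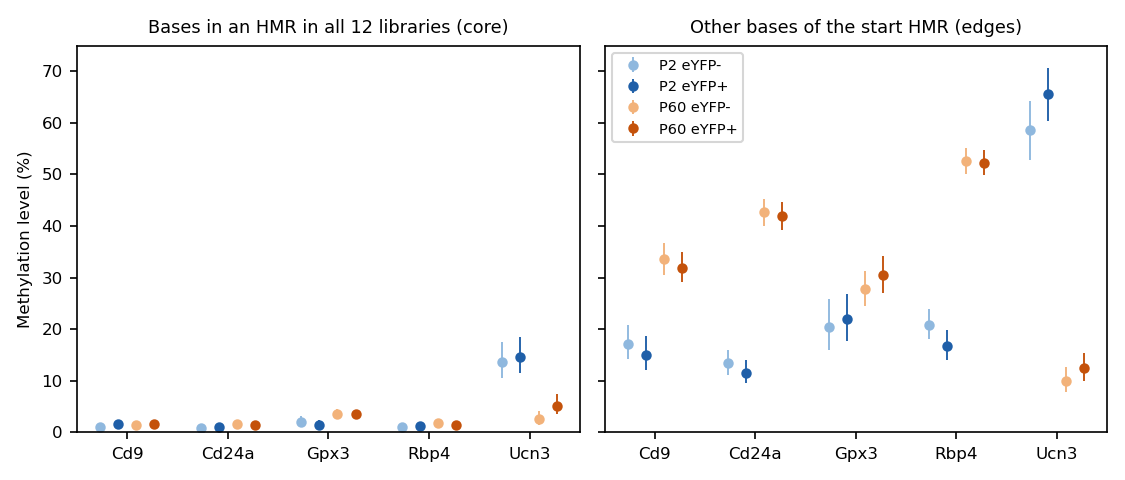
Methylation level (percent) of the start HMR of each gene in the 4 pools, for bases that lay in an HMR in all 12 libraries (left) and for the other bases (right), with 95% Wilson intervals. The cores of Cd9, Cd24a, Gpx3 and Rbp4 stay under 4% at both stages, and at the edges the stages differ, with Ucn3 in the opposite direction.

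The promoter windows gave fewer calls than the HMRs. In eYFP- cells the promoters of Cd9 (11.1% to 13.8%, adjusted p 0.0185 in Fisher's exact test) and Cd24a (9.84% to 21.1%) were called, and 25.6% of all promoters were. In eYFP+ cells those of Cd24a (9.39% to 21.2%) and Rbp4 (14.0% to 22.0%) were called, with 29.6% of all promoters. With the start of the canonical transcript, which lies further downstream in Cd24a, the gain of Cd24a was 1.09 and 1.04 points instead of 11.3 and 11.8. Outside the HMRs the windows of Gpx3, Rbp4 and Ucn3 rose in both subtypes, by 4.67 and 3.89, 6.15 and 6.41, and 5.12 and 4.64 points. The Cd24a window rose by 1.44 points in eYFP- cells and fell by 1.46 points in eYFP+ cells, both called, and the Cd9 window fell by 1.61 points in eYFP+ cells. In all, 4 of 5 windows were called in eYFP- cells and 5 of 5 in eYFP+ cells, where 75% and 75.5% of all windows were. Of the windows called over the genome, 8529 rose and 7769 fell in eYFP- cells. In eYFP+ cells 5318 rose and 11103 fell, so the falls at Cd24a and Cd9 had the more common direction there. Of single CpGs, 112 of 3140 tested were called in eYFP- cells, 100 higher and 12 lower at P60, where 0.723% of all CpGs were called. In eYFP+ cells 108 of 3139 were called, 98 higher and 10 lower, against 0.722% of all CpGs. Of the 12 and 10 that were lower, 12 and 9 lay at Ucn3.

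The libraries, which the labels number as replicates, gave the same order of the stages. The length of each window covered by HMRs was 4.40 to 4.47 kb in the P2 libraries and 3.03 to 3.28 kb in the P60 libraries at Cd24a, 2.42 to 2.65 kb and 0.672 to 1.46 kb at Gpx3, and 4.89 to 6.28 kb and 2.45 to 2.99 kb at Rbp4. At Cd9 it was 2.27 to 3.73 kb at P2 and 1.25 to 2.01 kb at P60. At Ucn3 it was 1.24 kb in each P2 library, without any spread, and 1.65 to 2.96 kb at P60. The stages did not overlap at any of the 5 genes (exact permutation test, p = 0.00202 for each). In limma all 5 passed, and 54.3% of the 18930 gene windows with a varying length did. The change was -1.54 ± 0.24 kb (SE, 4 and 8 libraries, limma) at Cd9, -1.27 ± 0.0682 kb at Cd24a, -1.58 ± 0.14 kb at Gpx3, -2.91 ± 0.22 kb at Rbp4 and 0.906 ± 0.22 kb at Ucn3, with adjusted p of 4.22e-04, 5.39e-07, 8.08e-06, 4.22e-06 and 0.00507. The median over all windows was -0.48 kb, and 236 of the 10283 called windows, Ucn3 among them, gained length. P2 libraries had 57109 to 60950 HMRs and P60 libraries 38052 to 49939, and the total HMR length was 55.6 to 58.7 Mb and 42.7 to 46.1 Mb. With lengths scaled to the same total in each library, all 5 still passed, where 46.1% of all windows did. The changes were -0.933, -0.368, -1.14, -1.89 and 1.27 kb in the same order of genes.

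**Figure D4:**
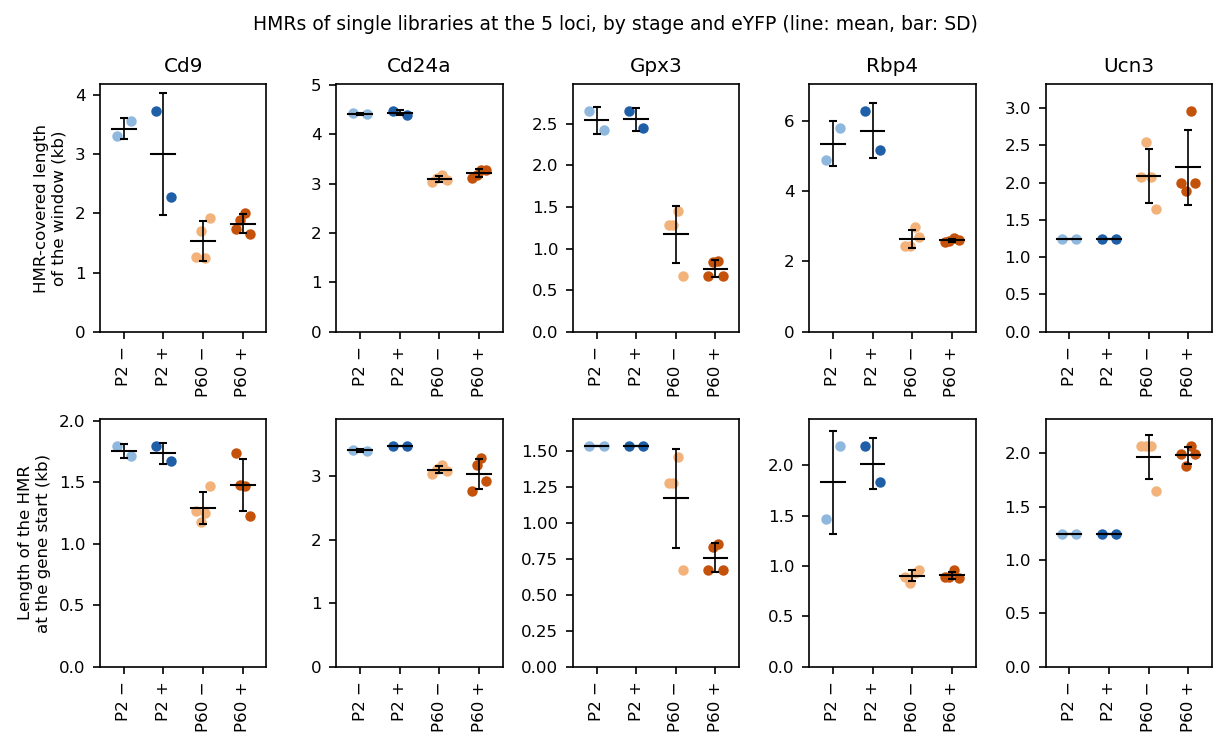
HMR-covered length of the window (upper row, kb) and length of the HMR at the gene start (lower row, kb) in each library, by stage and eYFP status, with the mean (line) and SD (bar). The P2 and P60 libraries do not overlap in the upper row, with Ucn3 higher at P60 and the other genes lower, whereas eYFP- and eYFP+ libraries of the same stage overlap there.

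Over all merged HMRs, 5.27% were found in all 4 P2 libraries and in no P60 library, as were 3 of the 17, and 35.2% were found in all 12 libraries, as were 7 of the 17, the 5 at the gene starts among them.

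Between subtypes the 5 loci differed little. At P2, 1 of 17 HMRs passed the test, where 2.44% of all HMRs did, and 1 of 17 at P60, where 2.14% did. The differences (eYFP+ minus eYFP-) ran from -11.9 to 4.37 points at P2 and from -6.37 to 2.82 points at P60. Without adjustment, 3 of the 17 HMRs at P2 and 5 at P60 had p under 0.05 in Fisher's exact test. The share of all HMRs at that level was not counted. No promoter of the 5 was called at P2, where 2.6% of promoters were, nor at P60, where 3.98% were. No single CpG of 3128 was called at P2 or of 3177 at P60 by Fisher's exact test. At an unadjusted p under 0.05 there were 70 and 107, or 2.24% and 3.37% of those tested, against 2.72% and 3.42% of all CpGs. Over the genome 1.04e-05% and 5.05e-06% of CpGs were called.

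The HMR called at P2 was the intron 2 HMR of Cd9, with 33.6% (29.0% to 38.6%) in the eYFP- pool and 21.7% (17.8% to 26.3%) in the eYFP+ pool. The difference was -11.9 points (counting SE 3.29), with an adjusted p of 0.0244 in Fisher's exact test. Of its 14 CpGs, 13 were lower in eYFP+ cells, none of them called alone. At P60 the levels were 57.3% and 51.6%, a difference of -5.71 points that was not called (adjusted p = 0.230, Fisher's exact test). The HMR was called in the P2 eYFP+ pool only, so that it had to be low in that pool. Among libraries it was found in 1 of each subtype, eYFP- replicate 2 and eYFP+ replicate 1, so presence in libraries did not follow the subtype. The middle of the region, chr6:125444395-125444694 (minus strand, mm39), is shown with every CpG in capitals.
Cd9 intron 2: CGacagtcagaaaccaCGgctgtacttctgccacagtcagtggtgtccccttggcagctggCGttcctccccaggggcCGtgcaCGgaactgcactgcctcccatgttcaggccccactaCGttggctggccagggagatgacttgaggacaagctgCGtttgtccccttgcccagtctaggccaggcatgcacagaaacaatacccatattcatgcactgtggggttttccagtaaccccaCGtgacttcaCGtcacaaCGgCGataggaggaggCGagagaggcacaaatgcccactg

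The HMR called at P60 was that at the Rbp4 start, with 13.9% (13.1% to 14.8%) in the eYFP- pool and 16.3% (15.4% to 17.3%) in the eYFP+ pool, a difference of 2.41 points (SE 0.65) with an adjusted p of 0.0201 in Fisher's exact test. At P2 the order was the other way, 7.59% and 5.67%, and this was the only 1 of the 17 HMRs for which the change between stages differed between subtypes (log odds 0.499 ± 0.13, adjusted p = 0.0258 by a Wald test on pooled reads, 1.17% of all HMRs passing). Neither the core nor the edges showed that difference at P60. In the core the levels were 1.74% and 1.49% and at the edges 52.7% (50.2% to 55.2%) and 52.3% (49.9% to 54.7%), each lower in eYFP+ cells. Of the reads on the HMR, 23.9% fell on the edges in the eYFP- pool and 29.2% in the eYFP+ pool. The mean of the levels of its CpGs, which gives each CpG the same weight, was 5.95% and 5.23% at P2 and 15.1% and 13.8% at P60, lower in eYFP+ cells at both stages, and with the HMR as bounded in the P60 pools the difference was -0.201 points (adjusted p = 0.906). At P2 33.0% and 28.3% of the reads fell on the edges.

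Outside HMRs the windows showed small differences. At P2 Cd24a was higher in eYFP+ cells by 2.32 points and Rbp4 lower, -1.85 points, 2 of 5 called, where 13.9% of all windows were called. Of the 3029 windows called over the genome at P2, 2944 were higher in eYFP+ cells, as Cd24a was and Rbp4 was not, and the median over all windows was 0.555 points. At P60 Cd9 (-0.843 points), Gpx3 (-0.936) and Rbp4 (-1.59) were lower in eYFP+ cells, 3 of 5 called, where 36.2% were. Of the 7874 windows called over the genome at P60, 7807 were lower in eYFP+ cells, and the median over all windows was -0.614 points.

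In libraries none of the 5 genes passed the test between subtypes. At P60 the HMR-covered length was 1.54 ± 0.33 kb (SD, n = 4) in eYFP- and 1.82 ± 0.16 kb in eYFP+ libraries at Cd9, 3.10 ± 0.0594 and 3.21 ± 0.0799 kb at Cd24a, 1.17 ± 0.34 and 0.758 ± 0.0997 kb at Gpx3, 2.64 ± 0.26 and 2.6 ± 0.048 kb at Rbp4, and 2.09 ± 0.37 and 2.21 ± 0.50 kb at Ucn3. Exact permutation tests gave p from 0.143 at Cd24a and Gpx3 to 0.83 at Rbp4, where 4 against 4 can reach 0.0286. Within the 4 same-numbered pairs, a comparison added after seeing the data, the length was greater in eYFP+ cells in 4 of 4 pairs at Cd24a, and at Gpx3 it was smaller in 3 pairs and equal in 1. The exact permutation test within pairs, two-sided, gave p = 0.125 at Cd24a, the smallest that 4 pairs allow, and 0.25 at Gpx3, and p from 0.375 to 0.875 at the other genes. In limma 0% of windows passed at P60, with 515 at an unadjusted p under 0.05. At P2, 0.412% did, none of them among the 5, and with 2 libraries a group the exact test cannot go below 0.333.

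Other genes of the same kind were counted from 2 lists. Of 18 further markers of maturity and heterogeneity, no promoter was called between subtypes at P2 or P60. Between stages 2 rose and 1 fell in eYFP- cells, and 2 rose and 2 fell in eYFP+ cells, where 25.6% and 29.6% of all promoters were called, with medians of 0.375 and 0.403 points against -0.161 and -0.376 over all promoters. The promoter of Slc2a2, the glucose transporter of beta cells, fell from 28.6% to 20.5% and from 28.1% to 21.5%. That of Nkx6-1, a transcription factor of beta cells, rose from 1.61% to 4.13% and from 1.92% to 4.34%. That of Npy, a neuropeptide, rose from 4.50% to 8.53% in eYFP- cells, and that of Hk1, a hexokinase with little expression in mature beta cells, fell from 68.0% to 57.4% in eYFP+ cells. Trp53bp1, a DNA repair protein, rose from 10.9% to 14.7% in eYFP+ cells.

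Of 25 genes of the members' families and partners, 2 promoters were higher in eYFP+ cells at P2, the peroxidases Gpx8 (12% and 20.2%) and Gpx7 (40.0% and 47.0%), where 2.6% of all promoters were called. At P60 Cd82 (23.3% and 29.7%) and Gpx1 (21.0% and 25.2%) were higher and Cd151 (31.4% and 26.1%) lower in eYFP+ cells, where 3.98% of all promoters were called. Cd82 and Cd151 are tetraspanins like Cd9. Between stages 7 rose and 2 fell in eYFP- cells, and 8 rose and none fell in eYFP+ cells. Over all promoters 2980 rose and 2480 fell in eYFP- cells, 25.6% in all, and 2881 rose and 3431 fell in eYFP+ cells, 29.6% in all. Stra6, the membrane receptor of Rbp4, rose from 54.5% to 70.8% and from 56.2% to 66.9%, and Gpx2, a peroxidase of the gut, from 41.6% to 57.4% and from 45.8% to 55.6%. Gpx4, which reduces lipid peroxides, rose from 63.4% to 75% in eYFP+ cells. Siglecg, a lectin that binds Cd24a, fell from 72.5% to 58.4%, and Cd53, a tetraspanin of leukocytes, from 82.2% to 68.4%, both in eYFP- cells. The medians of this list were 3.22 and 2.49 points.

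The genes most like each member in HMR-covered length over the 12 libraries were Capzb, Slc39a11 and Traf3ip1 for Cd9 (Pearson's r 0.976 to 0.977), Slc49a3, Pcgf3 and Gfra3 for Cd24a (0.996 to 0.997), Eva1c, Pax5 and Thbd for Gpx3 (0.979 to 0.986), Cacna2d4, Zfp521 and Mfsd2a for Rbp4 (0.994 to 0.996), and Fam20a, Dnajb13 and Ucp2 for Ucn3 (0.918 to 0.960). The libraries fall into the stages, so these values mostly rank genes by the difference between stages. For Cd24a 17.1% of genes had r over 0.9, for Rbp4 16.4%, for Gpx3 8.45%, for Cd9 3.81% and for Ucn3 0.0184%.

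In the middle 300 bp of the 17 HMRs, TGTTTAC for FOXA factors, AGATAAG for factors of the GATA family and TGCTGAC for MAF factors were found in none on either strand. TAATTA for homeodomain factors was found in 1 and CAGATG for NEUROD factors in 5. Over all HMRs the shares were 7.79%, 4.76%, 6.85%, 10.8% and 25.3%. CAGATG was present in the middle of the HMRs Cd9 -18.5 kb, Cd24a +23.7 kb, Gpx3 +15.0 kb, Rbp4 -7.9 kb and Ucn3 +2.8 kb, the last in intron 1. It was not in the middle of an HMR at a gene start, but the rest of HMRs longer than 300 bp was not searched. For this motif 5 of 17 lay near the share over all HMRs.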

How the data were processed

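Per the labels and the study's methods, reads were trimmed with Trim Galore 0.6.6 and Cutadapt 1.16 and mapped to mm39. From them the authors deposited, for each pair of pools, counts of methylated and unmethylated reads per CpG, and HMR positions per pool and per library with counts of CpGs in each HMR. The authors' probability of a difference at each CpG and their lists of differentially methylated regions were not used.

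HMRs of the 4 pools were merged. A level is the share of methylated reads over all CpGs of a region. Pools were compared by two-sided Fisher's exact test where each had 10 or more reads on a region, with a routine written for it (numba 0.67.0). The change between stages was compared between subtypes by a Wald test on log odds (scipy 1.17.1) with 0.5 added to each count. HMR-covered length per library was tested with limma 3.58.1 (R 4.3.3) over all protein-coding genes and, for the 5 genes, by exact permutation of libraries. All adjusted p are Benjamini-Hochberg values over all features tested. The labels do not name the deposited pools B1 and B2. B1 was taken as eYFP- and B2 as eYFP+, which was checked on the library HMRs: of the HMRs called in only 1 pool of a stage, libraries of the matching subtype held 8.80% to 37.1% and the other libraries 5.12% to 7.95%. Levels of counts pooled over libraries have no replicate error.

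All 5 genes were described, in each locus the start HMR and up to 4 further called HMRs with the largest difference, and up to 2 called CpGs per locus and comparison with the largest difference, of which examples are given. Up to 4 genes per list and comparison were named by the same order, and the 3 genes most like each member. The members and lists were chosen with earlier results of these data known. Tests were checked on simulated data, where changes of 20 points were recovered in 80.5% to 90.5% of 200 HMRs per comparison, out of 85592 to 86355. These HMRs were not highly methylated and their reads were drawn independently, unlike PCR reads. Changes of 1.5 kb were recovered in 95.0% of 200 of 18918 gene windows between stages. The 200 windows were drawn from those with a small spread within groups, so the recovery does not cover more variable windows. Labels number the libraries of both subtypes. Over 84472 autosomal HMRs the deviations of same-numbered libraries correlated at 0.140 to 0.309 in the 4 P60 pairs, which were taken as paired, and at 0.0142 at P2. P60 eYFP- replicate 2 correlated more with another number (0.232) than with its own (0.204), and same-numbered libraries also share a sex label. Alternatives were other window sizes, HMR sets, read minimums and differences, leaving out each library, scaling, and the replicate block.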

Additional observations from a re-analysis of the deposited data

Results flagged for a closer look

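In 20 groups of 4 P60 libraries, 3 single values lay far from the others of their group, where chance gives about 1 in 20 independent groups. The groups were not independent, since each start HMR is part of its window. The Rbp4 start HMR was 963 bp long in P60 eYFP+ replicate 3, with the nearest other library of that group at 893 bp. In P60 eYFP- replicate 4 it was also 963 bp long. The Ucn3 start HMR was 1652 bp long in P60 eYFP- replicate 4, where the other 3 libraries had 2071 bp. The HMR-covered length of the Ucn3 window was 2.96 kb in P60 eYFP+ replicate 3, with the nearest at 1.99 kb, and in that library the start HMR ran on into the HMR of intron 1. The change of the Rbp4 start HMR between stages differed between subtypes, with a log odds of 0.499, and the shares of reads on its edges given above moved with it.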

How the results depend on the processing

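Of 77 counts of calls under other settings 59 kept within 1.5 times of the reported count, and of 369 single values 360 kept their side of the threshold and, where called, their direction. All 24 counts and 120 single values without 1 library did so too. Of the HMRs, 0 were called between subtypes at P2 with only HMRs found in all 4 pools, a setting chosen after seeing the data. Of all such HMRs 2.05% were called. Between subtypes at P60, 0 were called with the HMRs of the compared pools only, 0 with a difference of at least 10 points, and 2 with 50 kb on each side. Over all HMRs the shares were 2.14%, 0.775% and 2.14%. With the HMRs of the compared pools the Rbp4 start HMR turned to -0.201 points. Between stages, in each subtype, 11 of 17 HMRs were called at 10 points or more, 9 of 9 with 2 kb on each side, 26 of 40 with 50 kb, and 8 of 8 with HMRs found in all 4 pools only. Over all HMRs 30.9% in eYFP- and 30.4% in eYFP+ cells were called at 10 points or more. With either flank 50% of all HMRs were called, and among those found in all 4 pools 40.2% and 39.9%. With promoters from 2000 bp before to 1000 bp after the start, 1 was called between subtypes at P60 (Gpx3, 4.19 points), 1 between stages in eYFP- cells and 4 in eYFP+ cells. Over all promoters the shares with this window were 7.9%, 35.5% and 40.1%. Outside HMRs, 0 windows were called between subtypes at P2 with 2 kb on each side and 1 with all CpGs of the window, and 1 at P60 with 2 kb. Over all windows the shares were 7.25%, 29.4% and 20.9%. The causes were not tested.

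With the replicate block, which pairs same-numbered libraries, 0 of the 5 windows were called between subtypes at P2 or P60 and 5 between stages, so that no call at the 5 loci changed. Over all windows the count at P2 went from 78 to 0. A covered CpG had 25.4 to 45.3 reads on average, which limits single CpGs, and the pools give no spread between mice.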

Other observations

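The P2 libraries were alike in different ways at different HMRs. The Cd9 intron 2 HMR was found in eYFP- replicate 2 and eYFP+ replicate 1 and in no other library, and the Rbp4 start HMR was 2194 bp long in both, against 1469 bp in eYFP- replicate 1 and 1839 bp in eYFP+ replicate 2. Other values went with the replicate number. The Rbp4 -7.9 kb HMR was found in both replicates 1 (140 and 178 bp) and in neither replicate 2, and the Gpx3 window had 2.65 kb in both replicates 1 against 2.42 and 2.45 kb in the replicates 2. Of the X-linked HMRs of P60 males, eYFP- replicate 2 and eYFP+ replicate 1 held 13.4% and 13.0%, against 91.7% and 83.8% in the others. The labels give replicate 2 of eYFP- as male and replicate 1 of eYFP+ as female.

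Outside the HMRs, 2 further short runs of CpGs with called gains lay near the genes, both noticed after the values were seen. At chr6:125479178-125479375, upstream of Cd9, 4 CpGs together had 27.1% and 26.7% at P2 and 58.6% and 54.6% at P60. At chr11:54788580-54789593, upstream of Gpx3, 17 CpGs had 63.7% and 65.6% at P2 and 83.2% and 84.7% at P60.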
